A study of Mus musculus with 6 samples.

Results

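The genes described here are 8 CXC chemokine genes and chemokine receptor genes that govern the traffic of neutrophils and other leukocytes. Cxcl1, Cxcl2, Cxcl3, Cxcl5 and Ppbp encode ligands that carry the amino acids Glu-Leu-Arg (ELR) before their CXC motif, and Cxcr2 encodes their receptor. Cxcl12 and Cxcr4 encode a ligand without that motif and its receptor. The 8 genes were taken by name from a given list out of the 33184 genes of an RNA-seq table of wound tissues. All 8 were among the 16005 genes whose mean was at least 0.5 FPKM (sequenced fragments per length of gene and per mapped total, a level corrected for gene length and library size).

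The wounds were round, full-thickness skin wounds of 6 mm on the back of diabetic db/db mice on the BLKS background (genotype dbdb in the labels). These mice carry a mutation of the leptin receptor in every cell, in both groups alike. At dpi 1 (1 day post-injury) the tissue around the wound received NC-siRNA, which is the control, or SFRP2-siRNA. The wounds were taken at dpi 4, although the sample titles carry day 3. Each group had 3 libraries, NC 1 to 3 and SFRP2-siRNA 1 to 3. Age and sex of the mice were not given in the sources used here. The labels do not say that the 3 libraries of a group came from separate animals, so p-values measure the spread between these libraries, which may in part be technical. The treated samples were titled siRNA-1 to siRNA-3 and the study lists 3 siRNAs under these names. Whether each library received a different siRNA was not stated.

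A neutrophil that meets an ELR ligand through Cxcr2 leaves the blood and moves toward the source of the ligand. Macrophages, keratinocytes, endothelial cells and neutrophils themselves make these ligands after injury, largely through NF-kB, a transcription factor switched on by IL-1, TNF and microbial products. Cxcl12, made by fibroblasts and other stromal cells, holds cells that carry Cxcr4 in place. In the bone marrow the Cxcl12 and Cxcr4 pair retains neutrophils, and the Cxcr2 ligands release them.

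The depth of the 6 libraries, recovered from the step size of the FPKM values, lay between 42.9 M and 47.1 M reads (M, the prefix mega). The value of a member in a library rested on 317 to 43325 reads. A pair of features of the libraries bears on every result. The siRNA target went against its label: Sfrp2 had 11.6, 40.6 and 14.1 FPKM in NC 1 to 3 and 50.6, 54.6 and 55.2 FPKM in SFRP2-siRNA 1 to 3, a log2 fold change of 1.45 (SE 0.43, adjusted p = 0.518 by limma, exact permutation p = 0.1). The groups are therefore called the libraries labelled NC and SFRP2-siRNA, and no direction below is read as an effect of a lower Sfrp2 level. In addition, SFRP2-siRNA 3 stood apart from the other 2 libraries of its group. The summed level of 22 neutrophil marker genes was 5089, 5917 and 1121 FPKM in SFRP2-siRNA 1 to 3, against 2066, 1918 and 1282 FPKM in NC 1 to 3. Most of each sum was S100a9, with 3529, 4658 and 805 FPKM and 1368, 1377 and 910 FPKM in the same order. The mean of log2(FPKM + 1) over the 22 genes, which weighs them alike, was 4.65, 4.48 and 3.33 in SFRP2-siRNA 1 to 3. In NC 1 to 3 that mean was 4.05, 3.68 and 3.30. The summed level of 8 skeletal muscle markers was highest of all libraries in SFRP2-siRNA 3, at 11826 FPKM, against 3157 to 6264 FPKM in the other 5. The fold changes of the 8 genes are given with and without that library.

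The ELR ligand genes lie close together in the mouse genome, with Pf4 and Cxcl15 among them. In the RefSeq annotation of GRCm38.p6 the order of protein-coding genes on chromosome 5 was Cxcl5, Ppbp, Pf4, Cxcl3, Cxcl15, Cxcl1 and Cxcl2. Cxcr2 and Cxcr4 lie on chromosome 1 and Cxcl12 lies on chromosome 6. The promoters of 7 of the 8 genes were matched in RefSeq, and Cxcl5 was not among them. In the 250 bases before the start of the gene, on either strand, the NF-kB consensus was found in Cxcl1, Cxcl2 and Cxcl3, or 3 of 7 members, against 7.25% of 32851 promoters of the mouse. TATAAA was found in 3 of 7, Cxcl3, Ppbp and Cxcr4, against 12.4% of all promoters. ACGTG, the core of the hypoxia response element, was found in 2 of 7, Cxcl1 and Cxcl3, against 16.6% of all promoters. The last 120 bases before the start are printed for the 3 ligands that hold the NF-kB consensus, and for Ppbp and Cxcl12, which do not hold it in these windows. Sequences are from RefSeq (GRCm38.p6), written 5′ to 3′ on the strand of the gene, with matches to the NF-kB consensus and to TATAAA in capitals.
Cxcl1 (chr5:90891125-90891244, plus strand): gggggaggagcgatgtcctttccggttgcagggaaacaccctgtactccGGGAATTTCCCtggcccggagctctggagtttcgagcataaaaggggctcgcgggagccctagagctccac
Cxcl2 (chr5:90903779-90903898, plus strand): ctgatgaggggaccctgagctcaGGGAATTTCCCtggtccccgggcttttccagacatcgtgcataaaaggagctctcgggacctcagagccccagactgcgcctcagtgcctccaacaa
Cxcl3 (chr5:90785981-90786100, plus strand): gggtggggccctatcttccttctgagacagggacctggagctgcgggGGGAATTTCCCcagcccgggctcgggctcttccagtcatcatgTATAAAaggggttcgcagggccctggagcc
Ppbp (chr5:90768398-90768517, plus strand): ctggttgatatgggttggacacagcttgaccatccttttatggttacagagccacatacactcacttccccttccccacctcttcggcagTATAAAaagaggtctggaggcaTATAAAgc
Cxcl12 (chr6:117168415-117168534, plus strand): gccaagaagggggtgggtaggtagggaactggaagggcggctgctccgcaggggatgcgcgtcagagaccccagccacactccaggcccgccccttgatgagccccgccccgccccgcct

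The match was the same in Cxcl1, Cxcl2 and Cxcl3, GGGAATTTCCC, in which the consensus reads on both strands and overlaps itself, so that it is counted as 1 stretch. It stood 71 to 61 bases before the start of Cxcl1, 97 to 87 before that of Cxcl2 and 73 to 63 before that of Cxcl3. These 11 bases occur in 14 of the 32851 promoters (0.0426%). That the 3 ligands share them was seen in the sequences and was not a question asked beforehand. A match is a description of the letters in the window and not of binding, and a window without one says nothing of the factor.

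The comparison of the libraries labelled SFRP2-siRNA with those labelled NC asked whether the wound tissues differed in the signals that call and hold neutrophils. All 8 genes had a higher mean in the libraries labelled SFRP2-siRNA, by 1.21-fold for Cxcl12 to 2.72-fold for Cxcl5, but none passed the test. The test (limma on log2(FPKM + 1), two-sided, adjusted over all genes) called 0 of 8 members and 0% of all genes at an adjusted p under 0.05 and an absolute log2 fold change above 1. At an unadjusted p under 0.05 it called 1 of 8 members, Ppbp, against 9.58% of all genes (1075 higher and 458 lower, a split that was 422 and 770 with median-of-ratios scaling of the libraries and 474 and 689 with quantile normalization). A higher value was common in these libraries: 71.8% of all genes tested had a log2 fold change above 0. Their median was 0.13 on the log2 scale, and that of the 8 members was 0.70. Other scalings put the median of all genes between 0.00034 and 0.20. Relative to that median as deposited, the members were higher by 0.18 for Cxcl12 to 1.16 for Cxcl5 on the log2 scale, and no member changed sign with another scaling. The groups did not overlap in 1 member, again Ppbp, which was higher, against 13.9% of all genes higher and 3.92% lower without overlap. The tissue was measured in bulk, so fewer cells of a type and less RNA per cell cannot be told apart.

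**Figure D1:**
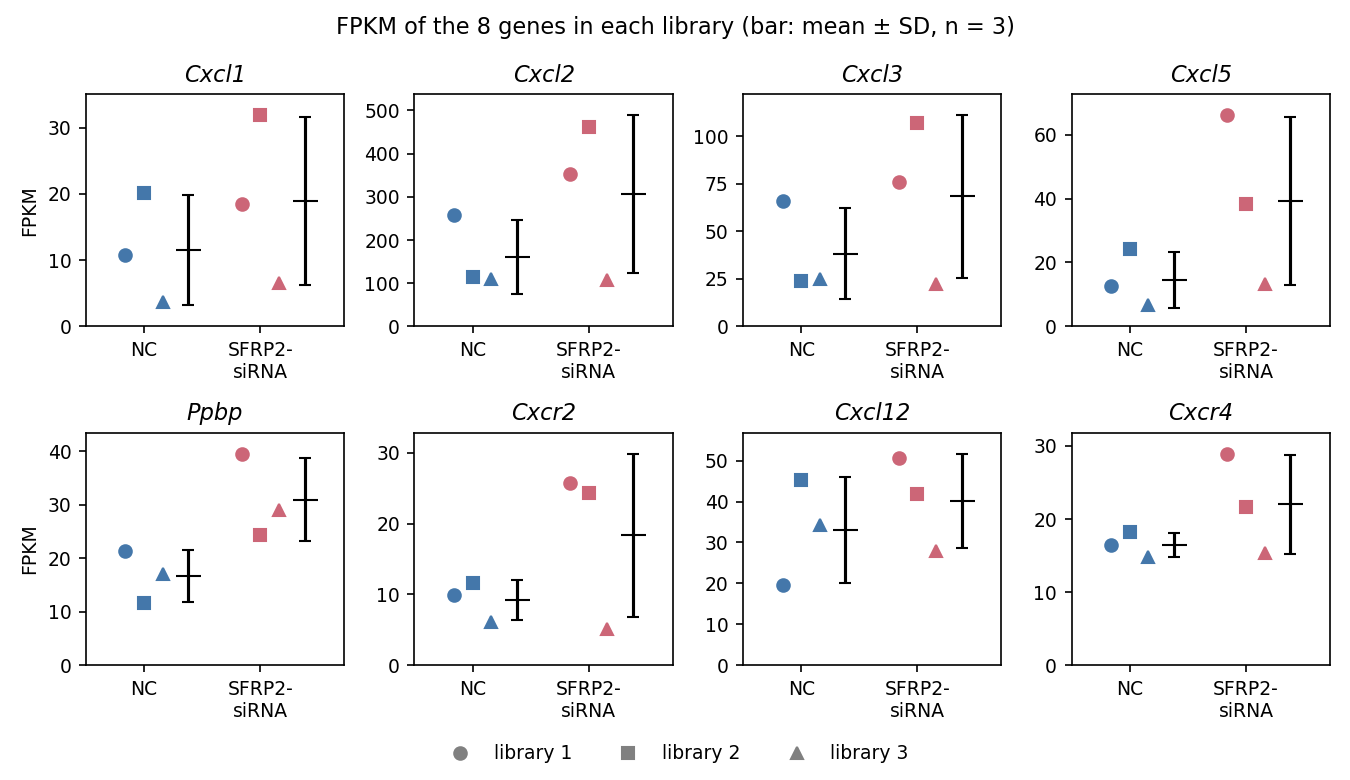
FPKM of each of the 8 genes (vertical axis, starting at 0) in the libraries labelled NC (blue) and SFRP2-siRNA (red), with the library number as the marker shape and the mean ± SD (n = 3) beside each group. The groups are apart only in Ppbp, and library 3 of SFRP2-siRNA is the lowest of all 6 in Cxcl2, Cxcl3 and Cxcr2.

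Cxcl2 (ENSMUSG00000058427; MIP-2), made early in wounds by macrophages and neutrophils, had the highest mean level of the 8. It had 258, 113 and 109 FPKM in NC 1 to 3 and 352, 462 and 107 FPKM in SFRP2-siRNA 1 to 3. Libraries 1 and 2 of SFRP2-siRNA thus lay above every NC library, and library 3 lay below all of them. The means were 160 ± 85.0 FPKM and 307 ± 182 FPKM (SD, n = 3 each), with a log2 fold change of 0.81 (SE 0.61, 95% interval -0.63 to 2.25, adjusted p = 0.591 by limma). The exact permutation p was 0.4.

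Cxcl3 (ENSMUSG00000029379; DCIP-1), the nearest relative of Cxcl2 among the members, followed it library by library. It had 66.1, 23.9 and 25.2 FPKM in NC 1 to 3 and 76.0, 107 and 22.3 FPKM in SFRP2-siRNA 1 to 3. High values were again found in NC 1 and in SFRP2-siRNA 1 and 2, so the groups overlapped. The log2 fold change was 0.72 (SE 0.64, 95% interval -0.81 to 2.24, adjusted p = 0.631 by limma, exact permutation p = 0.4). The ratio of Cxcl2 to Cxcl3 was 3.91, 4.75 and 4.33 in NC 1 to 3 and 4.63, 4.32 and 4.78 in SFRP2-siRNA 1 to 3, a range of 1.22-fold while each gene ranged over 4.34-fold and 4.79-fold. Their transcripts share an exact stretch of 157 bases in GENCODE vM21, and 5.84% of the 50-base words of Cxcl2 and 3.51% of those of Cxcl3 occur in the other. Reads from that stretch could be assigned to either gene, so the levels of Cxcl2 and Cxcl3 are uncertain to that extent. Other pairs among the 6 ligands share at most 23 bases and no 50-base word.

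Cxcl1 (ENSMUSG00000029380; KC), made by keratinocytes, fibroblasts and endothelial cells as well as leukocytes, had the lowest mean level of the ELR ligands. It had 10.7, 20.2 and 3.69 FPKM in NC 1 to 3 and 18.5, 31.9 and 6.52 FPKM in SFRP2-siRNA 1 to 3. Within each group library 2 was the highest and library 3 the lowest, and the groups overlapped. The log2 fold change was 0.68 (SE 0.69, 95% interval -0.96 to 2.33, adjusted p = 0.662 by limma, exact permutation p = 0.6). Without NC 3, the library with the lowest level, it was 0.10. Cxcl1 did not keep pace with Cxcl2: the ratio of Cxcl2 to Cxcl1 was 24.0, 5.61 and 29.6 in NC 1 to 3 and 19.0, 14.5 and 16.3 in SFRP2-siRNA 1 to 3. That ratio ranged over 5.27-fold.

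Cxcl5 (ENSMUSG00000029371; LIX), an ELR ligand made by epithelial and stromal cells, had the largest fold between the group means of the 8 members. It had 12.5, 24.1 and 6.71 FPKM in NC 1 to 3 and 66.1, 38.2 and 13.4 FPKM in SFRP2-siRNA 1 to 3. Libraries 1 and 2 of SFRP2-siRNA were above every NC library, and library 3 lay within their range. The means were 14.4 ± 8.83 FPKM and 39.2 ± 26.4 FPKM (SD, n = 3 each). The log2 fold change was 1.28 (SE 0.64, 95% interval -0.23 to 2.80, adjusted p = 0.524 by limma, exact permutation p = 0.2). The ratio of Cxcl5 to Cxcl1 was 3.57 in SFRP2-siRNA 1 and 1.17 to 2.05 in the other 5 libraries.

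Ppbp (ENSMUSG00000029372), which encodes the precursor, stored by platelets, of the neutrophil attractant Cxcl7 (NAP-2), was the member whose groups did not overlap. It had 21.3, 11.6 and 17.0 FPKM in NC 1 to 3 and 39.5, 24.3 and 29.1 FPKM in SFRP2-siRNA 1 to 3. Every library labelled SFRP2-siRNA, library 3 included, was higher than every NC library. The means were 16.6 ± 4.86 FPKM and 31.0 ± 7.78 FPKM (SD, n = 3 each). On the log2 scale Ppbp was higher by 0.87 (SE 0.26, 95% interval 0.24 to 1.50), with an adjusted p = 0.518 by limma (0.0140 before adjustment). The exact permutation test gave p = 0.1, below which groups of 3 cannot go. Pf4, another chemokine of platelet granules and the neighbour of Ppbp on chromosome 5, had 129, 117 and 94.2 FPKM in NC 1 to 3 and 302, 153 and 155 FPKM in SFRP2-siRNA 1 to 3. Its log2 fold change was 0.77 (SE 0.31, adjusted p = 0.518 by limma). The ratio of Ppbp to Pf4 was 0.17, 0.10 and 0.18 in NC 1 to 3 and 0.13, 0.16 and 0.19 in SFRP2-siRNA 1 to 3. Of 7 platelet markers tested, Pf4 among them, 5 were higher and 2 lower, with a median log2 fold change of 0.18. Itgb3, an integrin chain that macrophages and endothelial cells also carry, had a log2 fold change of 0.64 (adjusted p = 0.518 by limma). Gp5, a platelet surface glycoprotein, had a log2 fold change of -0.16, and Itga2b, the platelet integrin chain, had 0.18. The summed level of the platelet list was 101 to 138 FPKM in the libraries labelled NC and 163 to 314 FPKM in those labelled SFRP2-siRNA, nearly all of it Pf4. Over the 6 libraries Pf4 had a mean of 158 FPKM, against 2.15 FPKM for Itga2b and 0.55 FPKM for Gp5. The sum is thus a level of Pf4 and not a measure of platelets, and the cells behind the Pf4 values were not tested. No marker of the list was at 0 in all libraries. The erythroid list, 7 genes, was 1427 to 2385 FPKM and 2125 to 3387 FPKM. The part of blood content in the Ppbp values was not tested.

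Cxcr2 (ENSMUSG00000026180), the receptor of the ELR ligands on neutrophils, had 9.91, 11.6 and 6.09 FPKM in NC 1 to 3. It had 25.7, 24.3 and 5.08 FPKM in SFRP2-siRNA 1 to 3. Libraries 1 and 2 of SFRP2-siRNA were above all NC libraries and library 3 was the lowest of all 6. The log2 fold change was 0.69 (SE 0.58, 95% interval -0.69 to 2.07, adjusted p = 0.613 by limma, exact permutation p = 0.4). Csf3r, the receptor for G-CSF on neutrophils, had 15.0, 24.3 and 10.7 FPKM in NC 1 to 3 and 47.9, 39.4 and 11.9 FPKM in SFRP2-siRNA 1 to 3. The ratio of Cxcr2 to Csf3r lay between 0.43 and 0.66 over the 6 libraries, a range of 1.55-fold, while Cxcr2 itself ranged over 5.05-fold. Of the 22 neutrophil markers 15 were higher and 7 lower, with a median log2 fold change of 0.77. Against 9.58% of all genes tested, 1 of these markers was at an unadjusted p under 0.05 by limma. That gene was Mmp8, the neutrophil collagenase, with 3.89, 5.89 and 7.50 FPKM in NC 1 to 3 and 14.6, 10.6 and 7.60 FPKM in SFRP2-siRNA 1 to 3. The part of neutrophil number in the Cxcr2 values was not tested.

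Cxcl12 (ENSMUSG00000061353; SDF-1) had 19.6, 45.3 and 34.2 FPKM in NC 1 to 3 and 50.7, 41.8 and 27.8 FPKM in SFRP2-siRNA 1 to 3. NC 1 was the lowest and SFRP2-siRNA 1 the highest of the 6 libraries, and NC 2 was above SFRP2-siRNA 2 and 3. The means were 33.0 ± 12.9 FPKM and 40.1 ± 11.6 FPKM (SD, n = 3 each), the smallest fold of the 8 members. The log2 fold change was 0.31 (SE 0.35, 95% interval -0.52 to 1.14, adjusted p = 0.688 by limma, exact permutation p = 0.6), and without NC 1 it was -0.016.

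Cxcr4 (ENSMUSG00000045382), the receptor of Cxcl12 on most leukocytes, varied least of all members. It had 16.4, 18.2 and 14.7 FPKM in NC 1 to 3 and 28.9, 21.7 and 15.4 FPKM in SFRP2-siRNA 1 to 3. Libraries 1 and 2 of SFRP2-siRNA were above every NC library, and library 3 lay within their range. The log2 fold change was 0.36 (SE 0.23, 95% interval -0.19 to 0.91, adjusted p = 0.561 by limma, exact permutation p = 0.3). The highest of the 6 values was 1.96-fold the lowest, against 2.59-fold for Cxcl12 and 9.84-fold for Cxcl5.

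**Figure D2:**
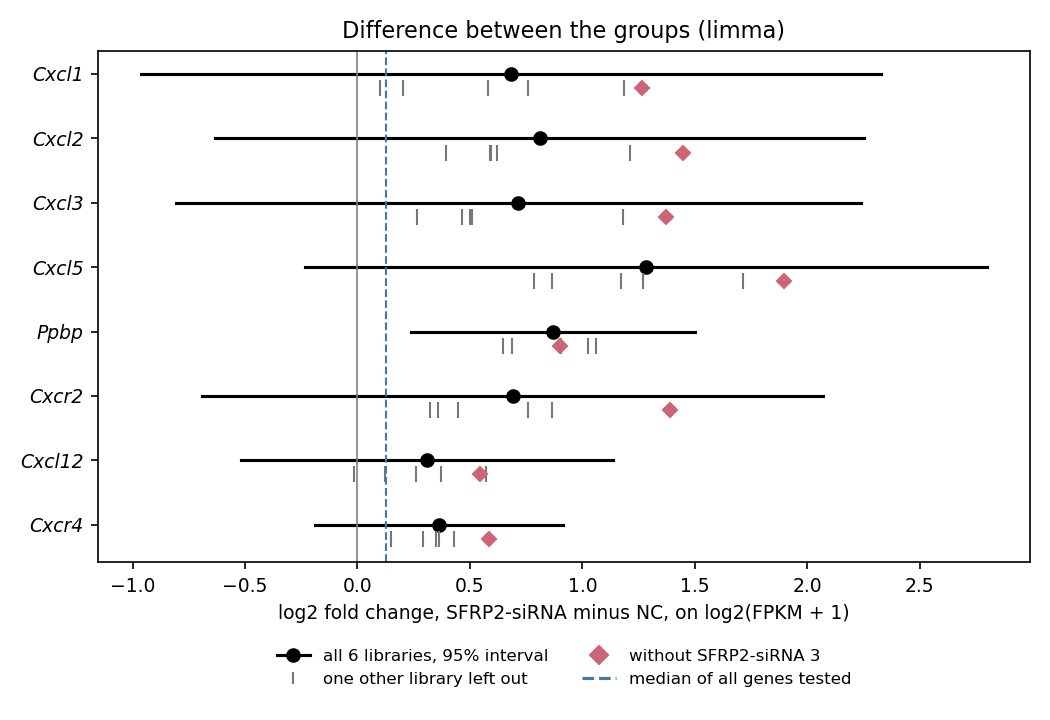
Log2 fold change of each gene between the libraries labelled SFRP2-siRNA and NC (horizontal axis, on log2(FPKM + 1)) with its 95% interval by limma (black), the values with 1 library left out (ticks, and red diamonds without SFRP2-siRNA 3), and the median of all genes tested (dashed, 0.13). The interval lies above 0 for Ppbp alone, and leaving out SFRP2-siRNA 3 moves Cxcl2, Cxcl3, Cxcl5 and Cxcr2 to between 1.37 and 1.90. That library was singled out on values of these same data.

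In the members too, SFRP2-siRNA 3 stood apart from the rest of its group. It was the lowest of all 6 libraries in Cxcl2, Cxcl3 and Cxcr2, and lay within the range of the NC libraries in Cxcl1, Cxcl5, Cxcl12 and Cxcr4. SFRP2-siRNA 1 was the highest library in 5 members and SFRP2-siRNA 2 in the other 3. Without SFRP2-siRNA 3, which leaves 2 libraries in that group, the log2 fold change was 1.45 for Cxcl2, 1.37 for Cxcl3, 1.90 for Cxcl5 and 1.39 for Cxcr2. It was 0.90 for Ppbp and 0.58 for Cxcr4. For Cxcl1 it was 1.27 and for Cxcl12 0.54. The first 6 of these members were then below an unadjusted limma p of 0.05, with adjusted p of 0.447 to 0.521, and 1401 of the 16005 genes were. No member passed the adjusted test in that fit either. SFRP2-siRNA 3 was singled out on values of these same libraries. It was the lowest of its group in every member but Ppbp, so leaving it out had to raise their differences. The rise and the count of 6 are therefore no support for a difference between the groups. The smallest change on leaving this library out was that of Ppbp. Leaving out another treated library lowered the differences instead, except for Ppbp, which was at 1.02 without SFRP2-siRNA 2. Without SFRP2-siRNA 2 the log2 fold change was 0.39 for Cxcl2 and 0.27 for Cxcl3. Without SFRP2-siRNA 1 it was 0.78 for Cxcl5, 0.32 for Cxcr2 and 0.15 for Cxcr4. The NC libraries mattered as well. Without NC 1 the log2 fold change was 1.21 for Cxcl2 and 1.18 for Cxcl3. For the same genes it was 0.62 and 0.47 without NC 2, and 0.59 and 0.50 without NC 3.

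**Figure D3:**
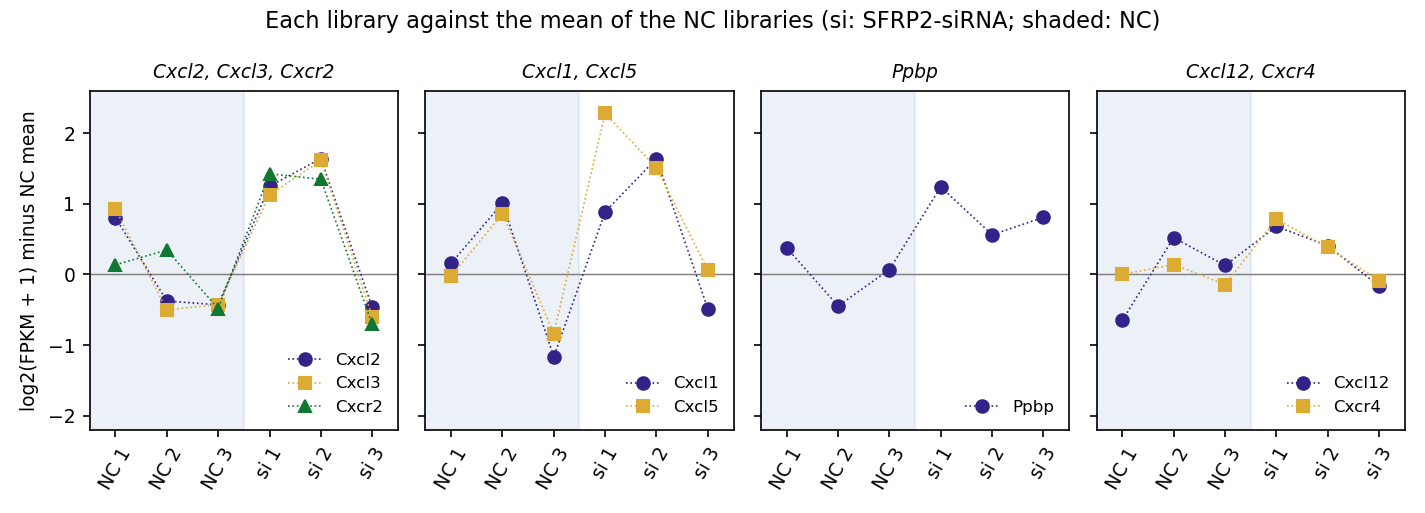
Log2(FPKM + 1) of each gene in each library minus the mean of the NC libraries (vertical axis), in 4 panels of genes with NC libraries shaded. Cxcl2 and Cxcl3 trace nearly the same line, Cxcr2 joins them in the libraries labelled SFRP2-siRNA, and Ppbp is the one gene above the NC mean in all of SFRP2-siRNA 1 to 3 by at least 0.56.

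Because FPKM is corrected for length, the levels of the genes can be set in order within a library. By the mean over the 6 libraries the order was Cxcl2 (234 FPKM), Cxcl3 (53.4 FPKM), Cxcl12 (36.6 FPKM), Cxcl5 (26.8 FPKM), Ppbp (23.8 FPKM), Cxcr4 (19.2 FPKM), Cxcl1 (15.3 FPKM) and Cxcr2 (13.8 FPKM). Cxcl2 was above Cxcl3 in 6 of 6 libraries, by 2.12 ± 0.10 on the log2 scale (SD, n = 6, exact sign-flip permutation p = 0.031, the smallest that 6 libraries allow). After adjustment over the 7 neighbouring pairs that p was 0.219, so no step of the order passed. With 6 libraries a single pair cannot pass this adjustment, whatever its difference, so the failure says nothing against that step. The pairs were set by the means of these same libraries. The other 6 steps were not uniform over the libraries: Cxcl3 was above Cxcl12 in 3 of 6 libraries, Cxcl12 above Cxcl5 in 5, and Cxcl5 above Ppbp in 3. The order of the means also differed between the groups: Cxcl5 (14.4 FPKM) was below Ppbp (16.6 FPKM) and Cxcr4 (16.4 FPKM) in the libraries labelled NC, and above both in those labelled SFRP2-siRNA, at 39.2 FPKM against 31.0 FPKM for Ppbp. Adjusted p-values of the 6 steps lay between 0.328 and 0.781 by the same exact permutation test.

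The balance of the ligands was then described in each library, with no test. The summed level of the 5 ELR ligands was 369, 193 and 162 FPKM in NC 1 to 3 and 552, 664 and 178 FPKM in SFRP2-siRNA 1 to 3. Cxcl2 alone made up 58.7% to 70.0% of that sum and Cxcl3 12.4% to 17.9%. The share of Ppbp ranged from 3.67% in SFRP2-siRNA 2 to 16.3% in SFRP2-siRNA 3, that of Cxcl5 from 3.40% to 12.5%, and that of Cxcl1 from 2.28% to 10.5%. Over Cxcl12, the ELR sum was 18.9, 4.26 and 4.72 times as high in NC 1 to 3 and 10.9, 15.9 and 6.39 times in SFRP2-siRNA 1 to 3. The means were 9.28 ± 8.30 and 11.1 ± 4.75 (SD, n = 3 each), and the group ranges lay one inside the other: the highest and the lowest ratio were both in NC libraries. At the receptors, the ratio of Cxcr2 to Cxcr4 was 0.60, 0.64 and 0.41 in NC 1 to 3 and 0.89, 1.12 and 0.33 in SFRP2-siRNA 1 to 3. Cxcr2 thus exceeded Cxcr4 in SFRP2-siRNA 2 alone. The ratio of Cxcl12 to Cxcr4 was 1.19 to 2.50 in the libraries labelled NC and 1.75 to 1.93 in those labelled SFRP2-siRNA.

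**Figure D4:**
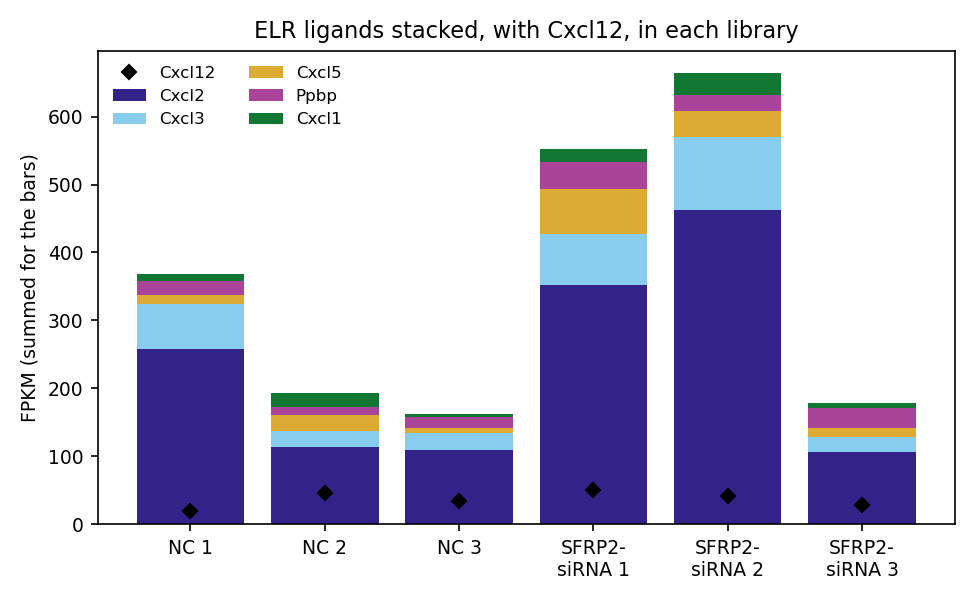
FPKM of the 5 ELR ligands stacked in each library (bars, vertical axis from 0) with Cxcl12 as a black diamond. Cxcl2 makes up 58.7% to 70.0% of every bar, the bars of NC 1 (369 FPKM) and SFRP2-siRNA 1 and 2 (552 and 664 FPKM) are the tallest, and Cxcl12 stays between 19.6 and 50.7 FPKM.

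The genes whose profile over the 6 libraries was nearest to each member were found by the mean absolute difference of log2(FPKM + 1), centred on each gene's mean. They are a description over 6 libraries, with no test. The nearest gene to Cxcl2 was Cxcl3 and the reverse, at 0.080, followed for both by Cyp4f18, a cytochrome of leukotriene B4 breakdown, at 0.15 from Cxcl2 and 0.17 from Cxcl3. The third was Nlrp3, an inflammasome sensor, at 0.20 from Cxcl2, and Mir132 at 0.24 from Cxcl3. Mir132 had a low level, at most 2.06 FPKM, and was at 0 in NC 3 and SFRP2-siRNA 3. Nearest to Cxcr2 were Clec4e, the myeloid receptor Mincle, at 0.087, the myeloid receptor gene Tarm1 at 0.10 and Gm5416 at 0.14. Clec4e had 11.1, 11.3 and 5.57 FPKM in NC 1 to 3 and 26.9, 24.8 and 5.91 FPKM in SFRP2-siRNA 1 to 3. Cxcl1 was nearest to Lce3b (0.11) and Lce3d (0.24), genes of the cornified envelope of the epidermis, and to the gelatinase gene Mmp9 (0.22). Cxcl5 was nearest to Mefv, which encodes pyrin (0.18), Gm9733 (0.23) and Ptx3, a pentraxin of innate immunity (0.23). The genes nearest to Ppbp were Gm8129 (0.14), the ribosomal protein gene Rpl39l (0.15) and Ctla2a (0.17). Cxcl12 was nearest to Bcl2a1d (0.10), a survival gene of a family of near-identical copies whose reads are uncertain, to Nlrc5 (0.11), the regulator of MHC class I genes, and to Ctsl (0.11), cathepsin L. Cxcr4 was nearest to Hilpda (0.051), a lipid droplet gene induced by hypoxia, Dennd3 (0.051) and 9230111E07Rik (0.053).

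Other genes of the same pathways were examined as lists, and none of their genes passed the adjusted test. Their counts are to be read against all genes tested. Of these, 9.58% were at an unadjusted p under 0.05 by limma, 13.9% were higher without overlap and 71.8% had a log2 fold change above 0. With median-of-ratios scaling, 1 of the other CXC genes, 0 of the inducers, 1 of the signalling genes and 1 of the genes around Cxcl12 were at an unadjusted p under 0.05 by limma. With quantile normalization these counts were 1, 0, 1 and 2. Of the other CXC chemokines and receptors, 10 of 15 were tested, and 8 were higher and 2 lower, with a median log2 fold change of 0.40 and 2 without overlap. Cxcl9, among the lower, changed sign with another scaling of the libraries. Ackr1, the decoy receptor that binds ELR ligands on venules and red cells, had 3.53, 4.95 and 4.38 FPKM in NC 1 to 3 and 11.2, 7.26 and 5.68 FPKM in SFRP2-siRNA 1 to 3 (log2 fold change 0.74, unadjusted p = 0.018, adjusted p = 0.518 by limma). Cxcr3, the receptor of the T cell attractants Cxcl9 and Cxcl10, had 0.80, 1.65 and 0.76 FPKM and 2.11, 1.82 and 1.52 FPKM (log2 fold change 0.47, adjusted p = 0.518 by limma, exact permutation p = 0.2). Ackr3, which scavenges Cxcl12, had 18.3, 36.2 and 17.7 FPKM and 26.9, 33.9 and 35.1 FPKM (log2 fold change 0.46, adjusted p = 0.559 by limma, exact permutation p = 0.4). At an unadjusted p under 0.05 the list held 3 genes, Ackr1, Pf4 and Cxcr3, with 6 without SFRP2-siRNA 3, 1 without NC 3 or without SFRP2-siRNA 1, and 0 without NC 1.

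The list of inducers holds cytokines, receptors and NF-kB factors that induce ELR ligands. It also holds brakes on that response (Nfkbia, Tnfaip3 and Zfp36) and targets of it (Ptgs2 and Icam1), so its count is not one of inducers alone. Of its genes 23 of 29 were tested, and 23 were higher, against 71.8% of all genes tested. The list had a median log2 fold change of 0.46. Only Tlr4, the receptor for bacterial lipopolysaccharide, was at an unadjusted p under 0.05, with 1.70, 3.89 and 2.37 FPKM in NC 1 to 3 and 6.26, 4.14 and 3.66 FPKM in SFRP2-siRNA 1 to 3 (log2 fold change 0.66, unadjusted p = 0.043, adjusted p = 0.518 by limma). Without SFRP2-siRNA 3 that count was 14, and without NC 1, NC 3, SFRP2-siRNA 1 or SFRP2-siRNA 2 it was 0, with 6 without NC 2. Nfkb1, the p50 subunit of NF-kB, had 5.25, 7.41 and 6.69 FPKM and 10.1, 8.18 and 7.60 FPKM and was the one gene of the list without overlap (log2 fold change 0.37, adjusted p = 0.520 by limma, exact permutation p = 0.1). Ptgs2, the inducible cyclooxygenase, had a log2 fold change of 0.89, and Il17ra, the receptor through which IL-17 induces Cxcl1 and Cxcl5, had 0.53. Il1b, the main IL-1 form of neutrophils and macrophages, is named here after its values were seen, because its libraries fell in the order of Cxcl2 in the treated group: 111, 82.9 and 46.9 FPKM in NC 1 to 3 and 223, 253 and 56.5 FPKM in SFRP2-siRNA 1 to 3. Its log2 fold change was 0.95 (SE 0.61, adjusted p = 0.561 by limma). Il17a, Il17f and Il17c, which encode IL-17 cytokines, and Csf2, which encodes GM-CSF, were below the level for testing. Il1a, Traf6 and Rela changed sign with another scaling of the libraries.

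Of the genes that act below the receptors, 28 of 28 were tested, and 25 were higher and 3 lower, with a median log2 fold change of 0.48. At an unadjusted p under 0.05 there were 7 and without overlap 8. Gng2, a G protein gamma subunit, had 3.78, 5.10 and 3.62 FPKM in NC 1 to 3 and 7.80, 6.05 and 6.13 FPKM in SFRP2-siRNA 1 to 3 (log2 fold change 0.57, unadjusted p = 0.011, adjusted p = 0.518 by limma). Arrb2, the arrestin that takes chemokine receptors off the membrane, had 20.05, 24.2 and 16.8 FPKM and 33.7, 30.1 and 26.9 FPKM (log2 fold change 0.56, adjusted p = 0.518 by limma, exact permutation p = 0.1). Rgs18, a brake on G proteins in platelets and myeloid cells, had a log2 fold change of 0.49. The count of 7 was 12 without SFRP2-siRNA 3, 15 without NC 2 and 2 without any 1 of the other 4 libraries. In 5 genes (Gnb2, Grk5, Plcb3, Ptk2b and Rgs2) the sign depended on the scaling.

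Of the genes that act on Cxcl12 or mark the stromal cells around it, 16 of 16 were tested, and 13 were higher and 3 lower, with a median log2 fold change of 0.38. Mmp2, a gelatinase that cuts and inactivates Cxcl12, had 30.6, 61.2 and 53.4 FPKM in NC 1 to 3 and 81.6, 90.1 and 80.3 FPKM in SFRP2-siRNA 1 to 3 (log2 fold change 0.84, unadjusted p = 0.017, adjusted p = 0.518 by limma). Mmp14, the membrane protease that activates Mmp2, had a log2 fold change of 0.47, and Pdgfra, a receptor of fibroblasts, had 0.83. Tgfb1 had 0.40. At an unadjusted p under 0.05 the list held 3 genes, Mmp2, Mmp14 and Pdgfra, with 5 without SFRP2-siRNA 3 and 1 without NC 3 or without SFRP2-siRNA 2. Mif, Hmgb1 and Ebf1 changed sign with another scaling. Against 71.8% of all genes tested, all 10 fibroblast markers were higher, with a median log2 fold change of 0.79. Against 9.58% of all genes tested, 8 of these markers were at an unadjusted p under 0.05 by limma. Their summed level was 983 to 2165 FPKM in the libraries labelled NC and 2407 to 2482 FPKM in those labelled SFRP2-siRNA, while Cxcl12 overlapped between the groups. The part of the number of fibroblasts in the Cxcl12 values was not tested.

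**Figure D5:**
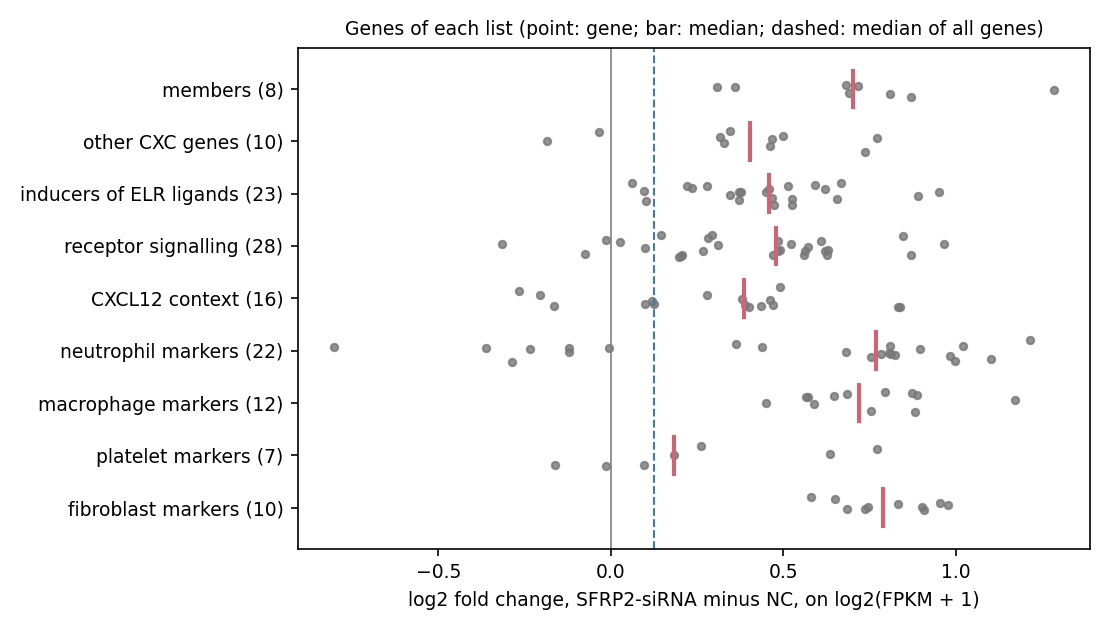
Log2 fold change between the libraries labelled SFRP2-siRNA and NC (horizontal axis, on log2(FPKM + 1)) of each tested gene (points) of the 8 members, 4 pathway lists and 4 marker lists, with list medians (red bars) and the median of all genes (dashed, 0.13). The median is 0.70 for the members, 0.38 to 0.48 for the pathway lists and 0.77 for the neutrophil markers, whose points reach from -0.80 to 1.21.

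Markers of other cells that make the ligands or carry the receptors also differed between the libraries. All 12 macrophage markers were higher, with a median log2 fold change of 0.72 and 9 at an unadjusted p under 0.05, and their summed level was 1087 to 1748 FPKM in the libraries labelled NC and 1951 to 2599 FPKM in those labelled SFRP2-siRNA. This sum did not overlap between the groups, while of the single genes 4 of 12 were without overlap. Of all genes tested, 9.58% were at an unadjusted p under 0.05 by limma, 13.9% were higher without overlap and 71.8% were higher. Counts at that p with another scaling were not taken for the marker lists. Of 10 keratinocyte markers 3 were higher and 7 lower (summed level 5367 to 9410 FPKM and 4909 to 8797 FPKM), and of 10 endothelial markers 5 were higher and 5 lower (90.2 to 125 FPKM and 84.8 to 152 FPKM). T cell markers, 6 of 9 tested, had 4 higher and 2 lower (14.3 to 17.7 FPKM and 13.6 to 23.9 FPKM). Adipocyte markers had 1 higher and 8 lower (2331 to 3030 FPKM and 1292 to 3167 FPKM), and the 7 muscle markers were all higher. With another scaling the sign changed in 5 endothelial, 2 keratinocyte, 2 T cell and 2 adipocyte markers, and in no macrophage or muscle marker. No listed marker was at 0 in all 6 libraries, and the skin markers were present throughout. Their part in the values of the 8 genes was not tested.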

How the data were processed

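RNA-seq was performed on wound tissues of db/db mice, 3 libraries labelled NC and 3 labelled SFRP2-siRNA. Per the labels, the authors made paired-end mRNA libraries, and their processing notes name HISAT2, featureCounts and Subread, without versions. The authors deposited FPKM values, normalised by gene length and by the mapped total of each library. The build and annotation were not given in the sources used here. The study used DESeq2, which was not used here. The deposited FPKM values were tested on the log scale, and reads recovered from them entered an alternative only.

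Values were analysed as log2(FPKM + 1), which understates the change of low genes. A mean of 0.5 FPKM or more was required, which left 16005 genes. The groups were compared by limma 3.58.1 in R 4.3.3 with moderated variances that follow the mean level (eBayes, trend on). Tests were two-sided and adjusted by the Benjamini-Hochberg method over all of these genes. Called genes had an adjusted p under 0.05 and an absolute log2 fold change above 1, the thresholds of the study. The script was tested on simulated data. Whole reads were recovered for 98.3% of the 32582 genes with a length in GENCODE vM21 (tolerance 0.05 of a read), and gave the depth. Even values made up 64.6% of those from 1 to 20 reads. Both mates thus entered the counts, and reads are not independent. No 2 libraries held identical values.

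Neighbouring levels were compared within libraries by a two-sided exact sign-flip permutation test. The named genes were the 8 members, Sfrp2, in each list up to 4 genes of smallest p and the 3 genes nearest in profile to each member. A gene that this rule names in the list of receptor signalling is not reported here. Csf3r and Il1b, named outside that rule, the ratios and the shared promoter stretch were chosen after the values were seen. The members and lists were chosen with earlier results of these data known. No list was tested as a set. Alternatives were another pseudocount, no filter, a filter at 2 FPKM, 3 scalings, no intensity trend, the replicate block, sample weights, voom on the recovered reads and leaving out each library. Proteins of the members were not analysed here.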

Additional observations from a re-analysis of the deposited data

How the results depend on the processing

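Over 16 alternatives the adjusted test called 0 members and 0 genes in each, and 127 of 128 fits of members kept the direction. The exception was Cxcl12, at -0.016 without NC 1 (range on leaving out a library -0.016 to 0.57). Neither change of the filter, nor the fit without intensity trend, nor the replicate block altered the log2 fold change of a member. The direction in those fits was thus fixed in advance, and their part of the 127 says nothing of stability. The lowest adjusted p of a member was 0.222, for Ppbp with the replicate block. Members at an unadjusted p under 0.05 by limma, 1 with all libraries, were 3 when libraries were weighted by estimated sample weights (Cxcl2, Cxcl3 and Ppbp), 0 with median-of-ratios scaling and 1 to 6 on leaving out a library, 2 without NC 2 (Cxcl5 and Ppbp) and 6 without SFRP2-siRNA 3. With the replicate block they were 3 (Cxcl1, Cxcl5 and Ppbp), and all genes at that p were 1929 in place of 1533. Libraries share only the number: same-numbered libraries had correlated deviations of -0.05, -0.15 and 0.38, and NC 2 correlated best with SFRP2-siRNA 1. Genes at an unadjusted p under 0.05 were 887 without NC 1, 948 without SFRP2-siRNA 2, and up to 1970 without NC 2. The median log2 fold change of the genes around Cxcl12, 0.38, was 0.225 with median-of-ratios scaling and 0.227 to 0.49 on leaving out a library, 0.227 without NC 1 or without SFRP2-siRNA 1. That median and those of the other 3 pathway lists kept their direction throughout. On leaving out a library, that of the other CXC genes (0.40) was 0.11 without SFRP2-siRNA 1 to 0.56 without NC 2. That of the inducers (0.46) was 0.26 without SFRP2-siRNA 1 to 0.72 without SFRP2-siRNA 3, and that of the signalling genes (0.48) was 0.33 to 0.58. The order of levels had 0 pairs past the threshold in each of 7 alternatives. With 5 libraries the smallest exact p of its permutation test is 0.0625, so no pair could pass there. The causes of these shifts were not tested. Each value of a member rested on 317 or more reads, and counting error was not separated from the spread between the 3 libraries of a group.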

Other observations

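Neutrophil genes did not all vary with Cxcr2. Ngp, Camp and Elane, granule genes singled out after their values were seen, were highest in NC 1. The granule genes Mpo and Ltf were also highest there, at 1.27 and 2.89 FPKM, while Lcn2 and Mmp8 were not. Ngp, which encodes neutrophilic granule protein, had 32.3, 8.09 and 10.9 FPKM in NC 1 to 3 and 17.9, 12.4 and 13.0 FPKM in SFRP2-siRNA 1 to 3. Camp, the cathelicidin precursor, had 12.5, 3.49 and 4.84 FPKM and 5.04, 4.51 and 4.004 FPKM. Elane, neutrophil elastase, had 3.39, 1.04 and 1.53 FPKM and 1.63, 1.26 and 1.34 FPKM. Lcn2, lipocalin, had 79.6, 111 and 48.6 FPKM and 129, 109 and 23.5 FPKM. Fpr1, the formyl peptide receptor of mature neutrophils, had 9.04, 7.45 and 5.18 FPKM and 26.7, 20.9 and 6.19 FPKM, the order of Cxcr2 in the libraries labelled SFRP2-siRNA. S100a8, a calprotectin gene, had 256, 219 and 182 FPKM and 738, 610 and 121 FPKM.

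Il6, a cytokine of the inducer list that falls outside the naming rule, had 1.38, 2.57 and 0.46 FPKM in NC 1 to 3 and 3.67, 2.88 and 0.22 FPKM in SFRP2-siRNA 1 to 3, so that SFRP2-siRNA 3 was again the lowest library. Cxcl14, a keratinocyte CXC chemokine outside the rule as well, had 65.0, 102 and 91.7 FPKM in NC 1 to 3 and 63.1, 83.2 and 78.3 FPKM in SFRP2-siRNA 1 to 3, with groups that overlapped. These are values with no explanation and no test.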
